A study of Homo sapiens with 6 samples.

Results

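Of the 54675 probe sets on the array, 11721 (21.4%) had no gene symbol in the platform annotation table used here, once the AFFX control probe sets were set aside. Membership in this unnamed class rests on that criterion alone: the names are missing from the table, and no measured value decided which probe sets belong. The class itself was taken up with earlier results of these data known. They were compared with the 41091 probe sets for which the table lists a single symbol. A further 1801 list several symbols and 62 are AFFX controls. The 11721 do not appear in the table used here at all, so it could give no accession or Entrez gene number for them. None of them could therefore be tied to a RefSeq gene, and a fuller table may list some of them. A probe set without a symbol here is unnamed, not without a gene, and each one is called below by its probe set name.

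On these arrays each probe set combines several short oligonucleotides aimed at the same part of a transcript, usually near its 3′ end, and its signal is read from all of them. The ending of its name tells how specific the design was judged to be. Names that end in _at read 1 sequence, _a_at probe sets read alternative transcripts of the same gene, _s_at probe sets match several transcripts that may come from different genes, and _x_at probe sets hold oligonucleotides that may also bind unrelated transcripts. The number before the ending does not name a gene, and its ranges are used here only to group the probe sets. The unnamed class leaned to the _at design, with 9788 probe sets (83.5% of the class, against 65.1% of the single-symbol class), and held 796 _s_at (6.79% against 24.2%), 833 _x_at (7.11% against 7.30%), 302 _a_at probe sets and 2 with other endings. By number, 2020 unnamed probe sets lay in the lowest range, up to 221999 (17.2%, against 45.7% of the single-symbol class), 6681 in the middle range, up to 244891 (57.0% against 38.0%), and 3020 in the highest range, from 1552256 (25.8% against 16.3%).

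The RNA came from MDA-MB-231, an established line of human breast cancer cells of the triple-negative kind, kept in L-15 medium with serum. There were 3 samples that stably carried an shRNA against MYOSIN10 (the gene MYO10, a motor protein of filopodia) and 3 that stably carried a scramble shRNA, with 1 array per sample. Both groups therefore carry an shRNA, and the labels do not say how many hairpins were used or whether a line is 1 clone. The labels also do not say whether the numbers 1 to 3 stand for separate cultures, so p-values measure only how far these 6 arrays spread, and that spread may be technical.

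The 6 arrays were scaled alike, with a trimmed mean of the linear signal between 500.074 and 500.078. The log2 difference between the 3′ and 5′ control probe sets ran from 0.46 to 0.51 with scramble shRNA and from 0.37 to 0.49 with MYOSIN10 shRNA for ACTB, so that RNA integrity by this measure overlapped between the groups. For GAPDH it ran from -0.067 to -0.0069 with scramble shRNA and from -0.087 to -0.062 with MYOSIN10 shRNA. There scramble array 2, at -0.067, was the only scramble array that overlapped the MYOSIN10 shRNA arrays. The targeted message was lower with MYOSIN10 shRNA in 4 of its 5 probe sets, of which 1 was called. This was the brightest MYO10 probe set, 201976_s_at. Its log2(signal + 16) was 11.57, 11.96 and 11.86 on the scramble arrays and 10.70, 11.39 and 10.64 on the MYOSIN10 shRNA arrays (log2 fold change -0.88 ± 0.17 SE, limma adjusted p = 0.0318). The call of 201976_s_at was lost without any 1 of the arrays numbered 1 or 3 (limma adjusted p up to 0.17). The log2 fold changes of 216222_s_at, 236718_at, 244350_at and 1554026_a_at were -0.74, -0.58, -0.84 and 0.31, and these did not pass (limma adjusted p = 0.0514, 0.163, 0.126 and 0.646). Each marker was read from the brightest probe set of its gene. VIM, CD44, AXL, CAV1, MSN and LGALS1, fixed as high, had percentiles of 99.2 to 99.7 among all probe sets. CDH1, FOXA1 and PGR were dim, with percentiles of 12.8, 17.7 and 20.9. Of the other markers fixed as low, KRT5 stood at percentile 36.2, ESR1 at 62.1, ERBB2 at 78.1 and GATA3 at 86.3. The last 3 reached the 40th percentile of the array on 6 of 6 arrays, so their brightest probe sets were not low here. For ESR1 that was the brightest of 9 probe sets and for ERBB2 and GATA3 the brightest of 3, which leans to a high reading. Markers of other cell types stood at percentile 34.9 for PTPRC, 45.6 for LUM, 49.0 for DCN and 58.5 for PECAM1.

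Most unnamed probe sets gave a signal in the lower part of the array. The level asked for was the array's own 40th percentile, a deposited log2 signal between 4.97 and 5.11, and a probe set that reached it on at least 3 of the 6 arrays was kept. Of the 11721 unnamed probe sets, 4875 (41.6%) were kept, against 27196 of 41091 (66.2%) with a single symbol and 1240 of 1801 (68.9%) with several. The unnamed class thus made up 14.6% of all kept probe sets outside the controls. Array by array, between 39.9% and 40.8% of the unnamed probe sets reached the level, against 65.1% to 65.3% of the single-symbol class. The gap was -24.6 ± 0.43 percentage points (SD, n = 6 arrays) and had the same sign on 6 of 6 arrays (exact sign-flip permutation test over arrays, two-sided, p = 0.031, the smallest that 6 arrays allow). The same probe sets were read on each array, so this p shows only that the gap recurred from array to array.

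Unnamed probe sets were also more often seen on some arrays and not on others. Of the class, 4263 (36.4%) reached the level on 0 arrays, 2722 (23.2%) on all 6, and 4736 (40.4%) on 1 to 5. In the single-symbol class these shares were 20.1%, 53.4% and 26.5%. The bottom value of the deposited scale, an exact log2 of 0, was held by 1.32% to 1.80% of the unnamed probe sets per array and by 0.604% to 0.798% of those with a single symbol.

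**Figure D1:**
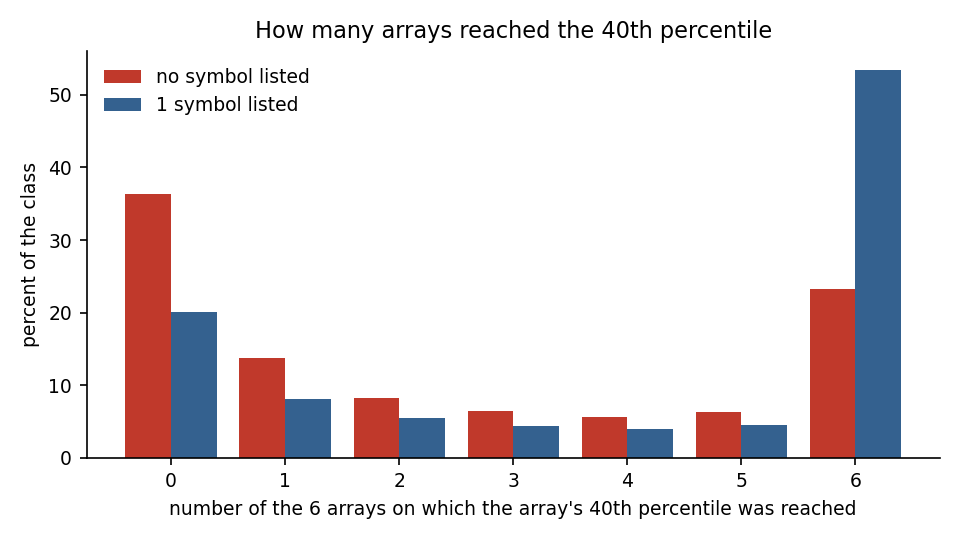
Percent of each class (vertical axis) by the number of the 6 arrays on which a probe set reached the array's 40th percentile (horizontal axis), for probe sets with no listed symbol (red) and with 1 (blue). The unnamed class stands at 36.4% on 0 arrays and 23.2% on 6, and the single-symbol class at 20.1% and 53.4%.

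Signals below are log2(signal + 16), a scale on which a signal of 0 reads 4. The class median of the unnamed probe sets lay between 5.29 and 5.38 on the 6 arrays and that of the single-symbol class between 6.49 and 6.58. The difference was -1.19 ± 0.029 (SD, n = 6 arrays), a 2.28-fold lower median signal on that scale (exact sign-flip permutation test, two-sided, p = 0.031). The size depends on what is added: it was -1.61 with 1 added and -0.66 with 64. Among kept probe sets alone the difference was -1.81 ± 0.055 (SD, n = 6; the same exact test, p = 0.031). Both p-values show only that the difference recurred over arrays that read the same probe sets. Averaged over the arrays, the middle 50% of the unnamed probe sets spanned 4.72 to 6.04, against 5.07 to 9.12 for a single symbol, and 90% of them lay between 4.33 and 9.23. A minority was bright: 411 unnamed probe sets (3.51%) had a mean over 10 and 134 (1.14%) a mean over 12, against 17.7% and 5.32% of the single-symbol class.

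**Figure D2:**
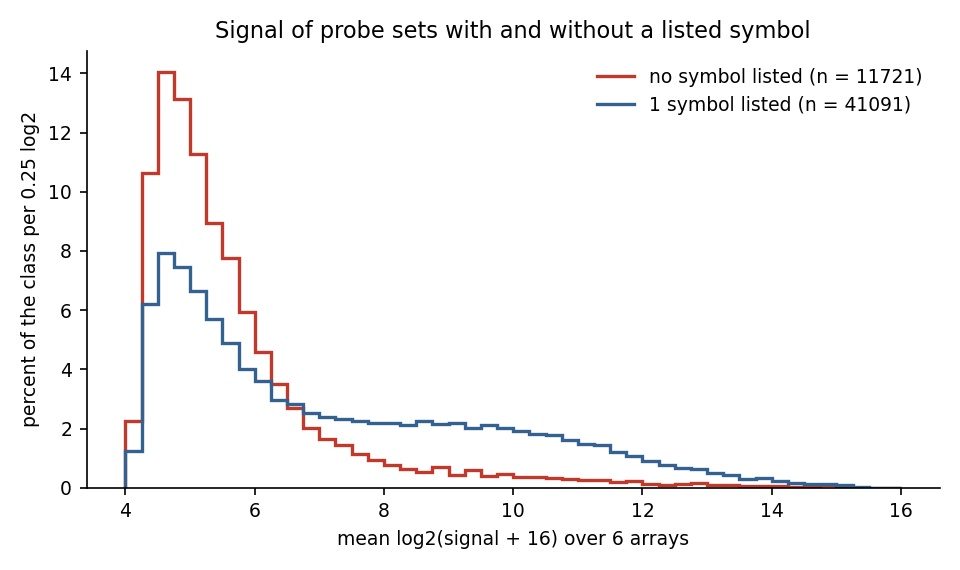
Distribution of the mean log2(signal + 16) over the 6 arrays (horizontal axis), as the percent of each class in steps of 0.25 (vertical axis), for 11721 probe sets with no listed symbol (red) and 41091 with 1 (blue). The unnamed class peaks near the lower end of the scale, with a median of 5.22 against 6.44, and has a thin tail to 15.27.

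The brightest members were among the brightest features of the whole array. The highest mean, 15.27, was that of 200031_s_at, which read 15.18, 15.20 and 15.33 with scramble shRNA and 15.32, 15.26 and 15.34 with MYOSIN10 shRNA. The next were 200017_at at 15.22, 221798_x_at at 15.16, 207243_s_at at 15.13, 206559_x_at at 15.12, 213801_x_at at 15.04, 200869_at at 14.99 and 211720_x_at at 14.95. All 8 have numbers in the lowest range, and 6 of them end in _s_at or _x_at. In 7 of the 8 the arrays of the groups overlapped, and in 200017_at the MYOSIN10 shRNA arrays (15.26 to 15.27) lay just above the scramble arrays (15.10 to 15.26). None of the 8 passed the test between groups, with log2 fold changes from 0.045 to 0.14 (limma adjusted p between 0.468 and 0.867).

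Within the class, the ending and the number range went with signal. Unnamed _s_at probe sets were kept in 65.1% of cases and _x_at in 55.1%, while 38.8% of _at and 33.4% of _a_at probe sets were kept. Their median signals were 6.47, 5.66, 5.16 and 5.06 in that order. Each of these shares was below that of single-symbol probe sets of the same ending, which ran from 51.0% for _a_at to 77.9% for _s_at. By number, 55.0% of unnamed probe sets of the lowest range were kept, 43.1% of the middle and 29.3% of the highest, against 74.4%, 66.7% and 41.8% with a single symbol. The kept share was thus lower in the unnamed class in each of these 4 endings and each of the 3 ranges.

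Scramble array 2 stood apart from the other scramble arrays on the leading component in both classes. Pairwise correlations across the 4875 kept members ran from 0.943 to 0.953 over the 15 pairs of arrays, against 0.974 to 0.983 across kept single-symbol probe sets. These are correlations across probe sets, which are not independent, and the lower range goes with the lower signals. The first principal component of the unnamed class held 23.1% of the variance. Scramble arrays 1 and 3 had scores of -14.6 and -16.0 on it. At its other end stood the MYOSIN10 shRNA array numbered 2, with 22.5, and the remaining 3 arrays scored 0.748 to 3.71. Scramble array 2, at 3.64, thus fell among the MYOSIN10 shRNA arrays. In the single-symbol class, where this component held 28.6%, scramble arrays 1 and 3 scored -38.5 and -35.7, scramble array 2 scored 2.92 and the MYOSIN10 shRNA arrays 20.6 to 28.1. Scramble array 2 correlated on average with the other scramble arrays and with the MYOSIN10 shRNA arrays at 0.9504 and 0.9500 in the unnamed class, and 0.9783 and 0.9790 in the single-symbol class. The second component, with 21.9%, set MYOSIN10 shRNA arrays 1 and 3, with scores of -12.2 and -22.2, apart from the remaining 4, with 5.60 to 11.1. In the single-symbol class the second component held 22.5% and set both arrays numbered 2 apart. There scramble array 2 scored -32.6 and the MYOSIN10 shRNA array numbered 2 scored -29.8, against 2.45 to 31.3 on the other arrays.

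Whether the level of the unnamed class, relative to the single-symbol class, differed between the groups could not be settled with 3 arrays against 3. The gap between the kept class medians was -1.79 ± 0.014 with scramble shRNA and -1.84 ± 0.077 with MYOSIN10 shRNA (SD, n = 3 each), a difference of -0.045 (exact permutation test, two-sided, p = 0.4, where 3 against 3 cannot go below 0.1). The share of unnamed probe sets that reached the 40th percentile was 40.6% ± 0.18 and 40.4% ± 0.45 (SD, n = 3 each; the same exact test, p = 0.7). That percentile fixes the share over all probe sets on each array, so this measure can show only a shift of the class against the rest. A lower signal may come from fewer cells with the transcript or from less of it per cell, and these cannot be told apart here.

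Of the 4875 kept unnamed probe sets, 21 (0.431%) were called, 13 higher and 8 lower with MYOSIN10 shRNA (limma, Benjamini-Hochberg adjusted over all 33311 kept probe sets). The background was 1.06% over all kept probe sets, 0.693% higher and 0.369% lower, and in the single-symbol class it was 1.17%. When the adjustment was made within the unnamed class, 5 passed, all higher (202530_at, 202856_s_at, 213506_at, 211561_x_at and 202855_s_at). An unadjusted p under 0.05 was found for 398 members (8.16%, against a background of 13.2%), 165 higher (3.38%, background 6.73%) and 233 lower (4.78%, background 6.44%). The groups did not overlap in 658 members (13.5%, against a background of 18.1%), 278 higher (5.70%, background 9.2%) and 380 lower (7.79%, background 8.94%). A called change of at least 2-fold was found in 10 members, 5 upward and 5 downward (0.205%, against a background of 0.246%). Both the 21 and the 10 include 223911_at, 238042_at and 236410_x_at. The filter kept each of these through the group in which it was higher, so their difference is partly built in. The median log2 fold change of the kept members was -0.027 and that of all kept probe sets -0.0021, with 46.1% and 49.6% of them positive. The median residual SD was 0.31 for unnamed and 0.20 for single-symbol probe sets, so a change of a given size had a larger error in the unnamed class.

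**Figure D3:**
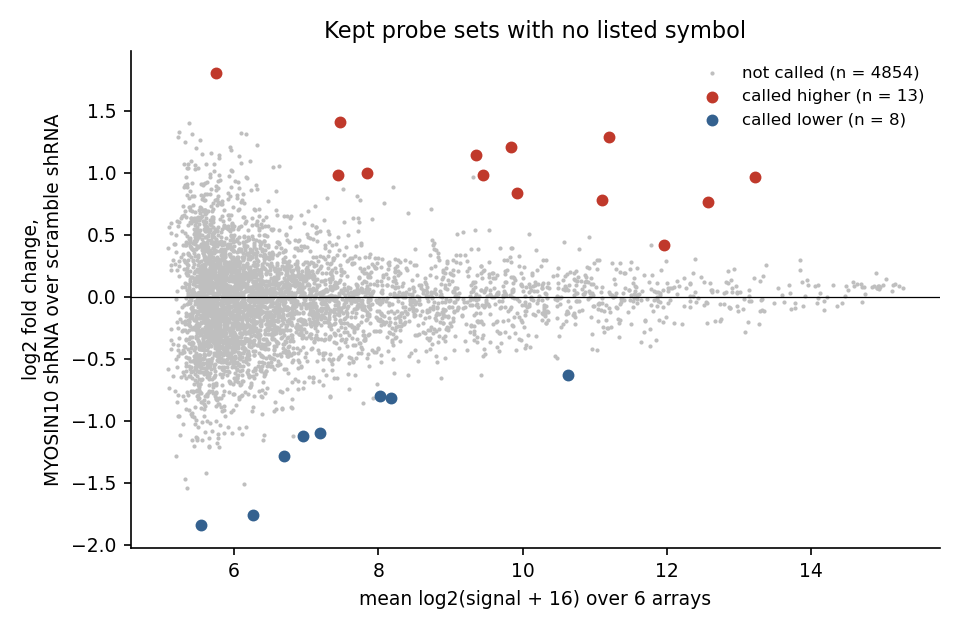
Log2 fold change, MYOSIN10 shRNA over scramble shRNA (vertical axis), against the mean log2(signal + 16) of the 6 arrays (horizontal axis) for the 4875 kept probe sets with no listed symbol. The spread narrows with signal, and the 13 called higher (red) lie mostly at brighter signals than the 8 called lower (blue).

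The count of calls turned on single arrays. Leaving out scramble array 2 raised it to 80. Leaving out another array lowered it, to 3 for scramble array 1 and for scramble array 3, to 3 for the MYOSIN10 shRNA array numbered 1, to 14 for the one numbered 2 and to 4 for the one numbered 3. Among the other kept probe sets the same fits gave 1388 calls without scramble array 2 and 55 to 249 without another array, against 333 with all 6. Of the 13 members that rose, 11 had their highest scramble value on scramble array 2, and of the 8 that fell, 6 had their lowest there. Over all kept members scramble array 2 was the highest of its group in 33.1% and the lowest in 35.2%. With a constant prior variance in eBayes in place of the trend, 0 unnamed probe sets passed in limma, 459 having an unadjusted p under 0.05.

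Among the members that rose, 3 stayed called without any single array. The first, 202530_at, read 10.46, 10.97 and 10.24 on the scramble arrays and 11.87, 11.82 and 11.84 on the MYOSIN10 shRNA arrays. All 3 MYOSIN10 shRNA arrays lay above the scramble arrays and within 0.056 of one another, and the rise was 2.44-fold (log2 fold change 1.29 ± 0.15 SE, limma adjusted p = 0.00214). The second, 213506_at, was the brightest called member, at 12.52, 13.10 and 12.60 against 13.67, 13.72 and 13.73. Its groups were also apart, with a log2 fold change of 0.97 ± 0.12 (SE, limma adjusted p = 0.0033). The third, 202856_s_at, read 12.07, 12.39 and 12.12 with scramble shRNA and 12.98, 12.96 and 12.92 with MYOSIN10 shRNA, a rise of 0.76 ± 0.090 (SE, limma adjusted p = 0.0022). In each of these 3 the scramble arrays spread more than the MYOSIN10 shRNA arrays, with scramble array 2 as the scramble array nearest to the other group.

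The other 10 rises were each lost without at least 1 array. The dim 223911_at showed the largest, from 4.62, 4.88 and 5.04 to 6.73, 6.32 and 6.89 (log2 fold change 1.80 ± 0.34 SE, limma adjusted p = 0.0281). Its scramble arrays lay close to the floor of 4 that the added 16 sets, and over the alternatives its value ran from 0.95 to 2.65, so the size is not firm. The filter kept it through its MYOSIN10 shRNA arrays alone, so its difference is partly built in and its adjusted p is no support. The probe set 211087_x_at read 6.15, 7.24 and 6.91 with scramble shRNA and 8.16, 7.87 and 8.51 with MYOSIN10 shRNA, a 2.66-fold rise. For 206429_at the values were 8.84, 9.91 and 8.94 against 10.47, 10.61 and 10.24, a 2.31-fold rise, and scramble array 2 lay closer to the MYOSIN10 shRNA arrays than to the other scramble arrays. For 211561_x_at they were 8.52, 9.22 and 8.62 against 9.96, 9.89 and 9.94, a 2.21-fold rise, with the MYOSIN10 shRNA arrays tightly together. Rises of 2.00-fold in 205199_at, 1.98-fold in 210449_x_at and in 244447_at, 1.79-fold in 225711_at, 1.71-fold in 202855_s_at and 1.34-fold in 210139_s_at made up the rest. Of these, 244447_at was the one in which scramble array 2 was the lowest scramble array, at 6.79 against 7.02 and 7.04.

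The members that fell were dimmer than those that rose, and no fall passed when the adjustment was made within the unnamed class. Of the 13 rises, 12 had a brighter group mean at or above the median of all kept probe sets, 7.84, and of the 8 falls, 3 did. The brightest fall, 230574_at, went from 11.13, 10.67 and 11.03 to 10.27, 10.40 and 10.28 (log2 fold change -0.63 ± 0.12 SE, limma adjusted p = 0.029). In 243154_at the values went from 8.73, 8.30 and 8.71 to 7.86, 7.88 and 7.56, and in 220033_at from 8.47, 8.51 and 8.29 to 7.76, 7.64 and 7.45. These 2 fell by 0.81 and 0.80 on the log2 scale, and scramble array 2 was the nearest to the other group in 230574_at and 243154_at but not in 220033_at.

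The other 5 falls had larger log2 fold changes and lower signals. The probe set 242398_x_at read 7.74, 7.32 and 7.52 against 6.21, 6.62 and 6.36, and 241903_at read 7.39, 6.93 and 7.69 against 5.90, 5.99 and 6.26. Their log2 fold changes were -1.13 and -1.28. The remaining 3 lay outside the rule for named probe sets and were chosen after their values were seen. They were 238042_at at -1.84, 236410_x_at at -1.76 and 236411_at at -1.10 (limma adjusted p = 0.038, 0.0444 and 0.0476). In 238042_at the scramble arrays read 6.28, 6.51 and 6.60 and the MYOSIN10 shRNA arrays 4.37, 4.98 and 4.52, close to the floor. Over the alternatives its value ran from -3.02 to -0.90. The filter kept 238042_at through its scramble arrays alone, so its difference is partly built in and its adjusted p is no support. The same limit holds for 236410_x_at, which reached the level on 4 of the 6 arrays and needed its scramble arrays to be kept. When any of the arrays numbered 1 or 3 was left out, the members still called were all rises. The largest limma adjusted p of each fall over the arrays left out lay between 0.122 and 0.248.

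**Figure D4:**
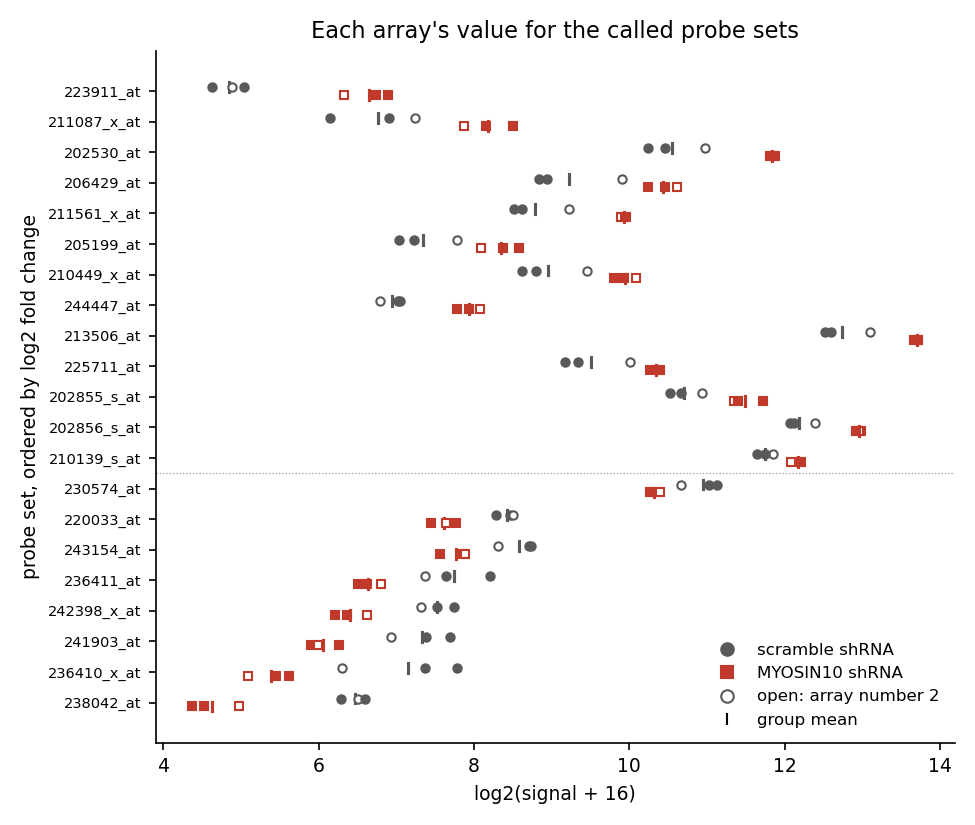
Log2(signal + 16) on each array (horizontal axis) for the 21 called probe sets with no listed symbol, ordered by log2 fold change, with scramble shRNA as circles and MYOSIN10 shRNA as squares, array number 2 of each group as open symbols and group means as ticks. The groups do not overlap in any of the 21, which were picked by their p on these same arrays. Scramble array 2 is the scramble array nearest to the MYOSIN10 shRNA arrays in 17 of them.

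The edge of the call was not marked by a break in the values. The last 3 inside it were 225711_at (limma adjusted p = 0.0455), 205199_at (0.0464) and 236411_at (0.0476). The first 3 outside were 213711_at at 0.97 (limma adjusted p = 0.0501), 235199_at at -0.86 (0.0504) and 235207_at at -0.48 (0.0504). In all 3 outside the edge the groups did not overlap either, but these were picked by a small p on the same arrays.

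By number, 11 of the 21 called members lay in the lowest range (10 higher and 1 lower, 0.990% of the 1111 kept there). Another 10 lay in the middle range (3 higher and 7 lower, 0.347% of 2880), and 0 of the 884 in the highest range were called. In that last range 60 members (6.79%) had an unadjusted p under 0.05 in limma, and no adjusted p passed. In the single-symbol class the shares called in the same 3 ranges were 1.42%, 1.07% and 0.287%. The _at probe sets gave 7 rises and 6 falls (0.343% of those kept, against 1.16% in the single-symbol class), _s_at 3 rises (0.579% against 1.45%), and _x_at 3 rises and 2 falls (1.09% against 0.570%). The share was thus higher in the unnamed class for _x_at, with 5 calls, and lower for the other 2 endings.

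The share of members that differed between the groups followed their signal. All kept probe sets were divided by mean signal into 10 bins of equal number, and 57.1% of the kept unnamed probe sets lay in the lowest 3 bins, against 25.5% of the single-symbol class, with 10.5% and 33.0% in the highest 3. In the lowest 3 bins, 4.99% of unnamed and 5.91% of single-symbol probe sets had an unadjusted p under 0.05. In the middle 4 the shares were 10.5% and 14.6%, and in the highest 3 they were 18.2% and 19.7%. Calls were made in 0.108%, 0.633% and 1.56% of unnamed and in 0.0576%, 0.994% and 2.26% of single-symbol probe sets, in the same order. The 3 unnamed calls in the lowest 3 bins were 238042_at, 223911_at and 236410_x_at. The filter kept these through the group in which they were higher, so the 0.108% is partly built in. The median residual SD at like signal was near equal, at 0.41 and 0.44 in the lowest 3 bins, 0.23 and 0.21 in the middle and 0.11 in both classes in the highest. With the bins of the single-symbol class weighted as in the unnamed class, its shares came to 9.62% for an unadjusted p under 0.05 and 0.495% for calls, against 8.16% and 0.431% in the unnamed class. These are shares over probe sets of the same 6 arrays and were not tested.

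**Figure D5:**
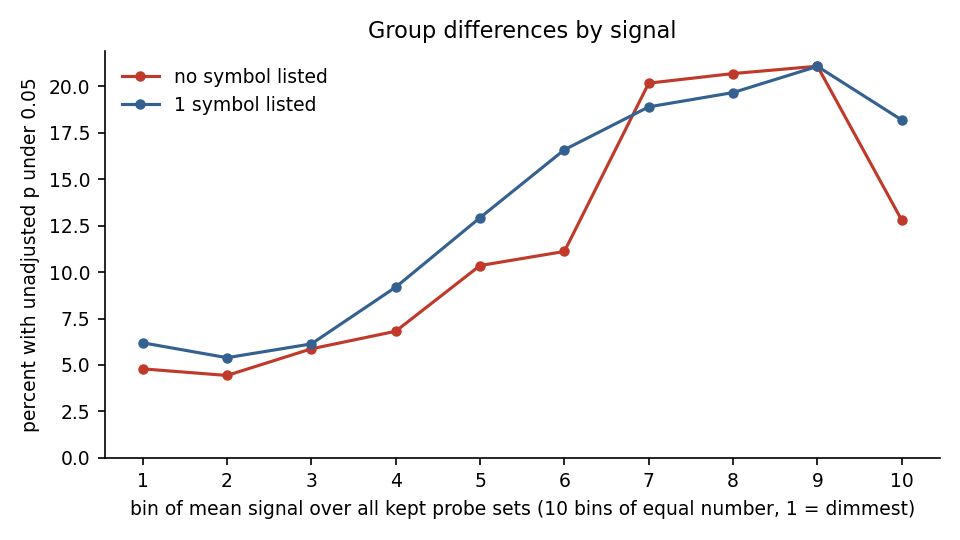
Percent of probe sets with an unadjusted limma p under 0.05 (vertical axis) in each of 10 bins of mean signal over all kept probe sets (horizontal axis, 1 the dimmest), for probe sets with no listed symbol (red) and with 1 (blue). The lines climb from 4.79% (unnamed) and 6.19% in the dimmest bin to 21.1% in bin 9, and the unnamed line is at 12.8% in the brightest bin, which holds 172 of its members, against 18.2%.

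A small number of members crossed the 40th percentile between the groups. Of the unnamed probe sets, 31 reached it on all 3 MYOSIN10 shRNA arrays and on 0 scramble arrays (0.264% of the class), and 43 did the reverse (0.367%). In the single-symbol class these were 102 (0.248%) and 92 (0.224%). All such members were dim, with a brighter group mean between 5.67 and 6.65, and the filter kept them through the group in which they were higher, so their difference is partly built in. Among the 74, 2 were called, 223911_at and 238042_at.

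Changes of unnamed probe sets with neighbouring numbers were compared next. There were 4545 pairs of unnamed probe sets with consecutive numbers, and both were kept in 790. The 2 log2 fold changes of a pair had the same sign in 407 of these (51.5%), and their correlation across pairs was -0.00047. Consecutive single-symbol probe sets that list the same symbol, 3843 of 30913 such pairs, had the same sign in 66.1% of the 2356 kept pairs, with a correlation of 0.43, and those with different symbols in 50.5%. These correlations are across probe sets of the same arrays and are a description. Both were called in 2 of the 790 unnamed pairs (0.253%), against 0.594% of the same-symbol and 0.0348% of the different-symbol pairs: 202855_s_at and 202856_s_at rose by 0.78 and 0.76 on the log2 scale, and 236410_x_at and 236411_at stood at -1.76 and -1.10. The filter kept 236410_x_at through its scramble arrays, so its difference is partly built in. The other 3 kept unnamed neighbours of called members did not pass: 211086_x_at stood at -0.19 and 244448_at at -0.16, beside the rises of 211087_x_at and 244447_at, and 242399_at at -0.40, with the sign of the fall of 242398_x_at (limma adjusted p = 0.85, 0.884 and 0.719).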

How the data were processed

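The submitters' processing notes name MAS5, which turns the oligonucleotides of a probe set into 1 signal, array by array, and then scales each array. No version is given in the sources used here. As for the unit, the authors deposited log2 signals, 1 column per array, a scale read from the values: the linear mean with 2% trimmed from each end was the same on every array. Here 16 was added to the linear signal before log2 was taken again, which understates the fold change of dim probe sets. Symbols came from the platform table and were updated through RefSeq (GRCh38.p14) for 41037 probe sets. Arrays carry no read depth, and their number, 3 per group, limits the precision. The groups were tested on the kept probe sets by limma 3.58.1 under R 4.3.3 (group as the sole term, variance trend on signal, two-sided), called at a Benjamini-Hochberg adjusted p under 0.05. The class, its groups and the tests were chosen with earlier results of these data known. Named were MYO10, the called members apart between groups and bright enough (up to 12 rises and 12 falls), up to 3 dim called, the 8 brightest and 3 on each side of the threshold. The comparison of consecutive numbers and the weighting by signal bins were added after the data were seen. The steps were tested on simulated data. Figures used Python 3.11.15 and matplotlib 3.10.9. Some results are not reported here.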

Additional observations from a re-analysis of the deposited data

How the results depend on the processing

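The number of called unnamed probe sets, 21, was 15 to 30 with another pseudocount (1 or 64), a stricter filter, quantile normalization, median centring or without _s_at and _x_at probe sets. It was 5 with no filter on low values, 5 when adjusted within the class, 5 with the class fitted alone, 52 with array weights and 0 without the variance trend (limma, 459 at an unadjusted p under 0.05). Leaving out 1 array gave 3 to 80, and leaving out both arrays numbered 2, chosen after seeing the data, gave 100. With the replicate number as a block it was 52, but whether the numbers pair the samples is not known. The deviations of same-numbered arrays 1, 2 and 3 correlated at -0.0088, 0.068 and -0.017 over kept members and at 0.033, 0.12 and 0.013 over all kept probe sets, highest for the arrays numbered 2. Over all alternatives in which they were tested, the called members kept their direction. For the named probe sets with a test, 218 values under an alternative stayed on their side of the threshold, 130 lost the call and 19 gained it. The kept share, 41.6%, was 38.2% to 38.6% with 1 array left out, 15.6% at the 60th percentile, 23.2% when all 6 arrays were asked for, 63.6% when 1 was and 38.6% without _s_at and _x_at probe sets. The class difference in signal, -1.19, was -1.20 to -1.18 with 1 array left out, -1.61 with 1 added, -0.66 with 64 added, -0.83 without _s_at and _x_at probe sets, -1.54 for means and -1.81 for kept probe sets; 5 arrays cannot give a p below 0.0625, so neither result passes with 1 array left out. The difference between the groups in the gap of the class medians, -0.045 also with the replicate block, stayed between -0.097 and -0.0048. The cause of the moves in the counts was not tested. A share of 36.4% of the class reached the 40th percentile on 0 arrays.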
